A study of Mus musculus with 2 samples.

Results

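Psmd14 encodes POH1 (also called RPN11), the metalloprotease of the proteasome lid, and is the gene deleted in these mice. It is described here with 9 relatives that carry the same JAMM or MPN fold. The 10 genes were chosen by name, each had a single row among the 34745 gene rows of the deposited tables, and all 10 passed the level of 1 CPM (counts scaled to the library size) in at least 1 library that defined 13464 measured genes. By role, 6 are catalytic (Psmd14, Cops5, Stambp, Stambpl1, Brcc3 and Mysm1) and 4 are inactive relatives (Cops6, Eif3h, Eif3f and Prpf8).

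RNA was sequenced from splenic CD4+Foxp3+ regulatory T (Treg) cells of 2-week-old C57BL/6 mice. The knockout (KO) library came from poh1fl/fl Foxp3Cre+ mice and the wild-type (WT) library from poh1+/+ Foxp3Cre+ mice. Both groups carried the Foxp3-driven Cre with its YFP reporter, by which cells were sorted, so that the floxed alleles were exposed to Cre in Foxp3-expressing cells. There was 1 library per genotype, and the sources used here do not give the number of mice behind each. Gene counts summed to 14544212 in the KO library and 18124611 in the WT library. No difference therefore has a replicate check, no test was possible, and every interval below is a 95% counting interval that covers counting error only.

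Deubiquitinases of the JAMM family cut ubiquitin, or a ubiquitin-like protein, from its substrate with a zinc ion held by histidine and aspartate residues, unlike the larger cysteine protease classes. POH1 removes the ubiquitin chain from a substrate as the proteasome pulls that substrate into its core. Other members act in other complexes: COPS5 (CSN5) removes NEDD8 from cullin ligases within the COP9 signalosome, BRCC3 cuts K63-linked chains in the BRISC and BRCA1-A complexes, STAMBP (AMSH) and STAMBPL1 (AMSH-LP) cut K63-linked chains on endosomes, and MYSM1 acts on ubiquitinated histone H2A. The inactive relatives keep the fold but lack a working metal site, and serve as structural subunits: COPS6 in the COP9 signalosome, EIF3H and EIF3F in the translation initiation factor eIF3, and PRPF8 at the centre of the U5 spliceosomal particle.

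The coding sequence around the metal site shows how the catalytic and inactive members differ. The stretches below hold 51 bases (17 codons) of the principal GENCODE transcript, 5′ to 3′. Each begins at the glycine and tryptophan codons that the 9 members compared here share, and capitals mark the codons at the histidine, histidine, serine and aspartate positions of the JAMM signature where that residue is kept.
Psmd14: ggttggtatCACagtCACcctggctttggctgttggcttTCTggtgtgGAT
Cops5: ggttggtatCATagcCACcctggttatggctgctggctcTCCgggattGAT
Brcc3: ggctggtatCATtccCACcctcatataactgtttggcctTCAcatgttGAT
Mysm1: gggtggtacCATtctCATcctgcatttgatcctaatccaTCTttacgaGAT
Stambp: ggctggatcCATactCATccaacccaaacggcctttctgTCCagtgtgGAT
Stambpl1: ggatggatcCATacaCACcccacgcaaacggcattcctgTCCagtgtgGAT
Prpf8: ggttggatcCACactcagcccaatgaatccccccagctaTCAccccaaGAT
All 6 catalytic members kept the 4 signature codons, and 0 of the 3 inactive members compared did. Counted without gaps from the shared start, Prpf8 kept 3 of 4, missing only the codon for the second histidine. Eif3h and Eif3f kept 0 by that rule, which allows no gaps. Aligned without gaps, Cops5 matched Psmd14 at 41 of 51 bases, more than Brcc3 at 31, Mysm1 at 28, Stambp at 27 and Stambpl1 at 26. The inactive members matched at fewer positions, Prpf8 at 24, Eif3f at 19 and Eif3h at 16. Stambp and Stambpl1 differed from each other in bases, with 44 of 51 shared, and encoded the same residue at all 17 codons.

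In Psmd14 this stretch spans codons 110 to 126 of 310 and lies in exon 7 of 12, at chr2:61764865-61764915 on the plus strand (mm10). The Cops5 stretch lies in exon 3 of 8 at chr1:10034062-10034112 on the minus strand, and that of Mysm1 in exon 16 of 20 at chr4:94952198-94952248 on the minus strand. Introns interrupt the stretch in Stambp (chr6:83552018-83556286, minus strand), Stambpl1 (chr19:34236402-34238814, plus strand), Brcc3 (chrX:75435504-75436107, plus strand) and Eif3f. Prpf8 carries it near the end of a long protein, at codons 2176 to 2192 of 2335, in exon 40 of 42 (chr11:75508536-75508586, plus strand). The sources used here do not say which Psmd14 exons are floxed, and a gene count does not separate transcripts with and without the signature codons.

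Psmd14 had 463 counts, or 31.8 CPM and 8.21 FPKM (fragments per kilobase, scaled to the library size), in the KO library, and 1619 counts, 89.4 CPM and 23.05 FPKM, in the WT library. The KO level was 35.6% of the WT level (32.1% to 39.5%), which is the direction the label gives. By its log2 ratio of KO to WT, -1.49, it stood at percentile 6.80 of the measured genes, so that 6.80% of measured genes had a lower ratio. In RNA from a sorted population, fewer cells with an intact gene and less RNA per cell cannot be told apart. The interval of Psmd14 lay wholly beyond 1.5-fold lower, which 12.3% of measured genes did. Wholly beyond 1.5-fold higher lay 9.58% of measured genes and 0 of the 10 members.

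The sorted identity of the cells was visible in both libraries, although markers of other cell types differed. The 8 Treg and T cell markers summed to 5395 CPM in the KO library and 5291 CPM in the WT library. Il2ra (the interleukin-2 receptor chain CD25) was the most abundant in KO and Ctla4 in WT. These similar sums held opposite differences, with 2 markers higher and 2 lower beyond 1.5-fold, beside 9.58% of measured genes higher and 12.3% lower. Foxp3 was 1.60-fold and Il2ra 1.55-fold higher, while Ctla4 had a ratio of 0.628 and Ikzf2 of 0.637. The other 4 were not called. All 8 B cell markers were lower beyond 1.5-fold, summing to 39.04 CPM in KO and 145.9 CPM in WT, with Cd79b the most abundant. So were all 8 erythroid markers, at 22.96 CPM in KO and 93.5 CPM in WT, with Hbb-bs the most abundant. Both CD8 T cell markers were higher, at 47.4 CPM in KO and 18.8 CPM in WT, with Cd8a the more abundant in KO and Cd8b1 in WT. The 10 myeloid and neutrophil markers, led by Csf1r, summed to 219 CPM in KO and 185 CPM in WT, with S100a8 and Elane at 0 counts in KO and Elane at 0 in WT. Among 8 of them that were measured, 1 (Csf1r) was higher and 1 lower. Csf1r alone was at 92.1 CPM in KO and 52.9 CPM in WT. The log2 ratios of 3 of the 8 were above 0 and those of 5 below 0 (median -0.03). The 5 NK cell markers, with Eomes the most abundant in KO and Tyrobp in WT, summed to 16.2 CPM in KO and 9.33 CPM in WT, with Ncr1 and Klra8 at 0 in KO and Klra8 at 0 in WT, and of 3 measured 1, Eomes, was higher. With 8 and 3 measured genes, the called counts of the myeloid and NK cell lists are not set apart from the shares over all measured genes. The part of these other cells in the members' values was not tested.

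**Figure D1:**
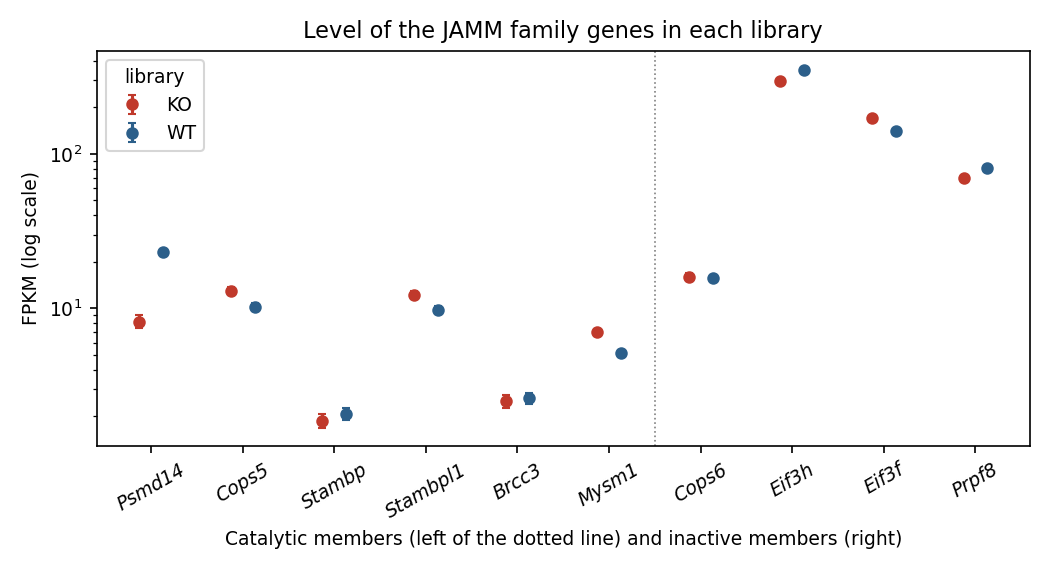
FPKM of each family gene (log axis) in the KO and the WT library, 1 point per library, with 95% counting intervals as bars. Psmd14 is at 8.21 FPKM in KO and 23.05 FPKM in WT, while the KO and WT points of every other gene lie close together on a scale that runs from 1.87 to 349 FPKM.

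Among the other catalytic members, 3 were somewhat higher in the KO library and 2 did not differ beyond counting error. Mysm1, the histone H2A deubiquitinase, had 1618 counts in KO and 1478 in WT, or 111 CPM in KO and 81.6 CPM in WT, 1.36-fold higher (1.27 to 1.46). Cops5, the catalytic subunit of the COP9 signalosome, had 1066 counts in KO and 1055 in WT, which at the lower KO depth was 1.26-fold higher (1.15 to 1.37). Stambpl1 had 1143 counts in KO and 1142 in WT, 1.247-fold higher (1.15 to 1.35). These 3 ratios were modest beside the scatter of all genes, at percentiles 77.7, 72.1 and 71.5. The endosomal enzyme gene Stambp had 389 counts in KO and 536 in WT, a ratio of 0.904 (0.791 to 1.03). The ratio of Brcc3, with 435 counts in KO and 567 in WT, was 0.956 (0.841 to 1.08). The intervals of both genes include 1, and at these counts a difference within those bounds was not detectable.

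The 4 inactive members went in both directions, and Eif3h, Eif3f and Prpf8 had far more counts than the catalytic members. Eif3f had 8784 counts in KO and 9094 in WT, 1.20-fold higher (1.17 to 1.24). Eif3h, which sits beside it in eIF3, had 5411 counts in KO and 7916 in WT, a ratio of 0.851 (0.822 to 0.881). Prpf8 had 8636 counts in KO and 12565 in WT, a ratio of 0.856 (0.833 to 0.880). The KO to WT ratios of Eif3f and Eif3h thus went in opposite directions, although both genes encode subunits of one complex. Eif3f had more counts than Eif3h in both libraries. Cops6 had 1003 counts in KO and 1219 in WT, a ratio of 1.02 (0.942 to 1.12), with an interval that includes 1.

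Taking the 9 relatives as a set, 0 had the interval wholly beyond 1.5-fold, beside 9.58% of measured genes higher and 12.3% lower. With 9 genes, a count of 0 is not set apart from those shares. Their median log2 ratio was 0.04, against -0.01 over all measured genes. The ratios ran from 0.851 for Eif3h to 1.36 for Mysm1. For 4 relatives the interval lay wholly above 1, as it did for 34.3% of measured genes, and for 2 it lay wholly below 1, as it did for 35.2%. Counting intervals at this depth exclude a ratio of 1 for most genes, so these small differences are not set apart from the general scatter between the libraries. The median log2 ratio of the 6 catalytic members, Psmd14 included, was 0.13, and that of the 4 inactive members was -0.09.

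**Figure D2:**
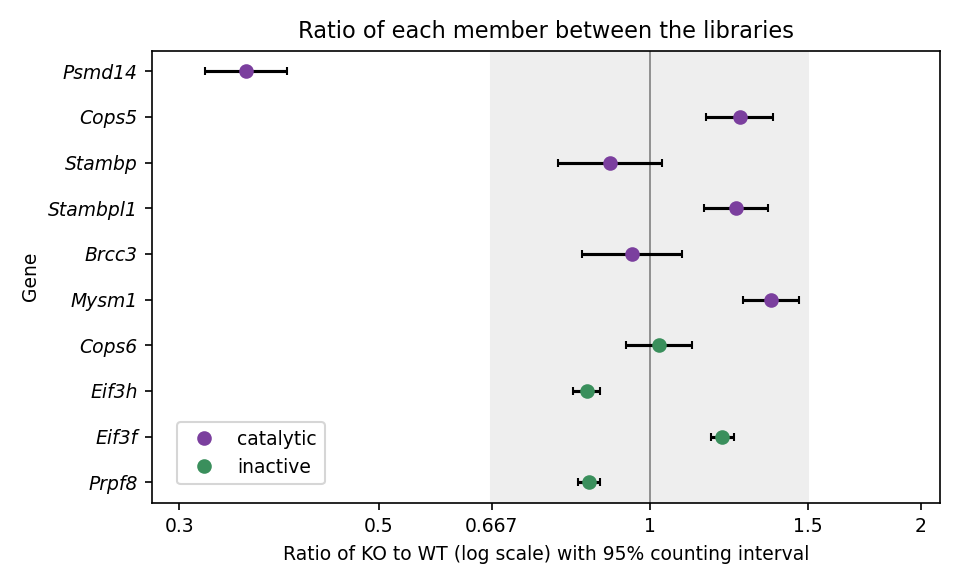
Ratio of KO to WT for each family gene (log axis) with 95% counting intervals. The grey band marks ratios within 1.5-fold, and Psmd14 at 0.356 is the only member outside it, the others lying between 0.851 and 1.36.

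Setting Psmd14 against each relative within a library needs no scaling between libraries. The KO library held 0.434 Psmd14 reads per Cops5 read and the WT library 1.53, a quotient 3.53 times lower in KO (3.08 to 4.05). Per Cops6 read there were 0.462 Psmd14 reads in KO and 1.33 in WT, 2.88 times lower (2.51 to 3.29). Psmd14 reads thus outnumbered those of both COP9 relatives in WT and were fewer than either in KO. Against Mysm1 the quotient was 0.286 in KO and 1.10 in WT, 3.83 times lower (3.37 to 4.35), the widest of the 9 comparisons. Against Stambpl1 it was 0.405 in KO and 1.42 in WT, 3.50 times lower (3.06 to 4.003). The narrowest gap was with Eif3h, at 0.0856 in KO and 0.205 in WT, 2.39 times lower (2.14 to 2.67). Every one of the 9 intervals lay wholly below equality, and the remaining 4 quotients were between 2.40 and 3.38 times lower, for Prpf8, Stambp, Brcc3 and Eif3f. The 9 comparisons share the same Psmd14 counts and are not independent of each other.

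**Figure D3:**
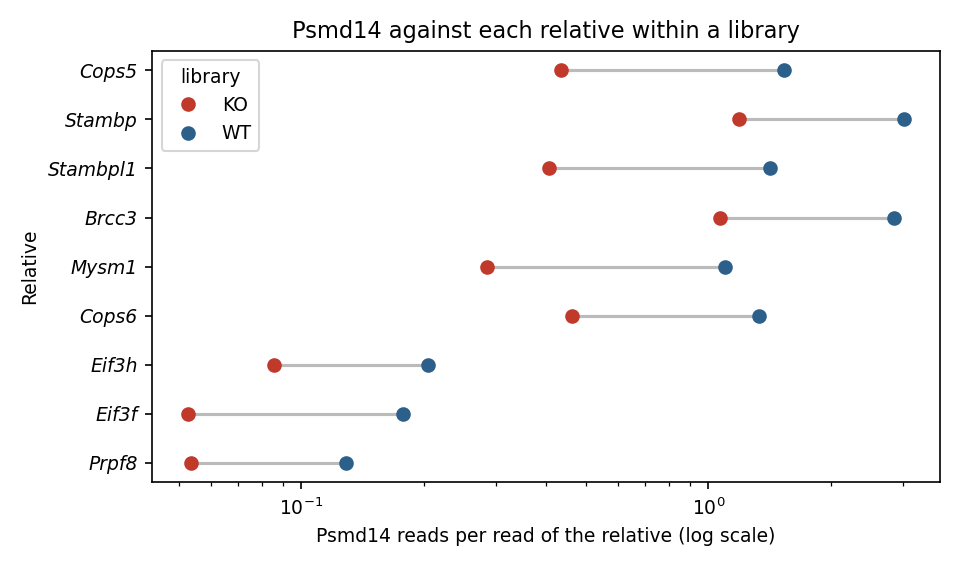
Psmd14 reads per read of each relative (log axis), with KO and WT joined by a line. The KO point is left of the WT point for all 9 relatives, with the widest gap for Mysm1 (0.286 in KO and 1.10 in WT) and the narrowest for Eif3h (0.0856 in KO and 0.205 in WT).

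Pairs of relatives were also set against each other within a library. Cops5 and Cops6 bind each other as the MPN pair of the COP9 signalosome, and there were 1.06 Cops5 reads per Cops6 read in KO and 0.865 in WT, 1.23 times higher (1.09 to 1.39). For the paralogs Stambpl1 and Stambp, Stambpl1 reads per Stambp read were 2.94 in KO and 2.13 in WT, 1.38 times higher (1.18 to 1.61). For the eIF3 pair, Eif3f reads per Eif3h read were 1.62 in KO and 1.15 in WT, 1.41 times higher (1.35 to 1.48). The matching pair in the proteasome lid is Psmd14 with Psmd7 (RPN8), the inactive MPN subunit that holds POH1 in place. The quotient of that pair differed most: there were 0.232 Psmd14 reads per Psmd7 read in KO and 1.01 in WT, 4.36 times lower (3.85 to 4.93).

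The order of the members by level per length was led by the inactive subunits of large, abundant complexes. On the FPKM scale Eif3h was first at 297 FPKM in KO and 349 FPKM in WT, then Eif3f at 171 in KO and 142 in WT, then Prpf8 at 69.6 in KO and 81.2 in WT. Psmd14 was the fourth in WT, the most abundant of the 6 catalytic members, and number 7 in KO, below Cops6 at 16.02 FPKM, Cops5 at 12.9 FPKM and Stambpl1 at 12.1 FPKM. In WT those 3 genes were at 15.6, 10.2 and 9.73 FPKM. Mysm1 followed with 6.98 FPKM in KO and 5.12 in WT, then Brcc3 with 2.50 in KO and 2.61 in WT, and Stambp was last with 1.87 in KO and 2.07 in WT. Cops5 and Stambpl1 had overlapping counting intervals in both libraries and their order is undecided, while the FPKM intervals of other neighbours in the order did not overlap. Psmd14 made up 1.37% of the summed FPKM of the 10 genes in KO and 3.60% in WT. Among the 6 catalytic members alone its share was 18.4% in KO and 43.6% in WT.

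These levels depend on the gene length that the authors used. That length can be read back from the count and the FPKM, and it was 3876 bases for Psmd14 against 1541 bases for its principal GENCODE transcript. The excess was largest for Stambp, with 14319 bases against 2364, and Eif3h alone had a shorter length, with 1253 bases against 1295. Counts per kilobase of the principal transcript again placed Psmd14 at number 7 in KO and number 4 in WT, at 20.7 in KO and 57.98 in WT once divided by library size as in FPKM. On that scale Stambp stood above Brcc3 in both libraries and, in WT, above Mysm1. In KO, Cops6 at 38.6 came after Cops5 at 43.2 and Stambpl1 at 38.8, so the order of these 3 genes depends on the length used.

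**Figure D4:**
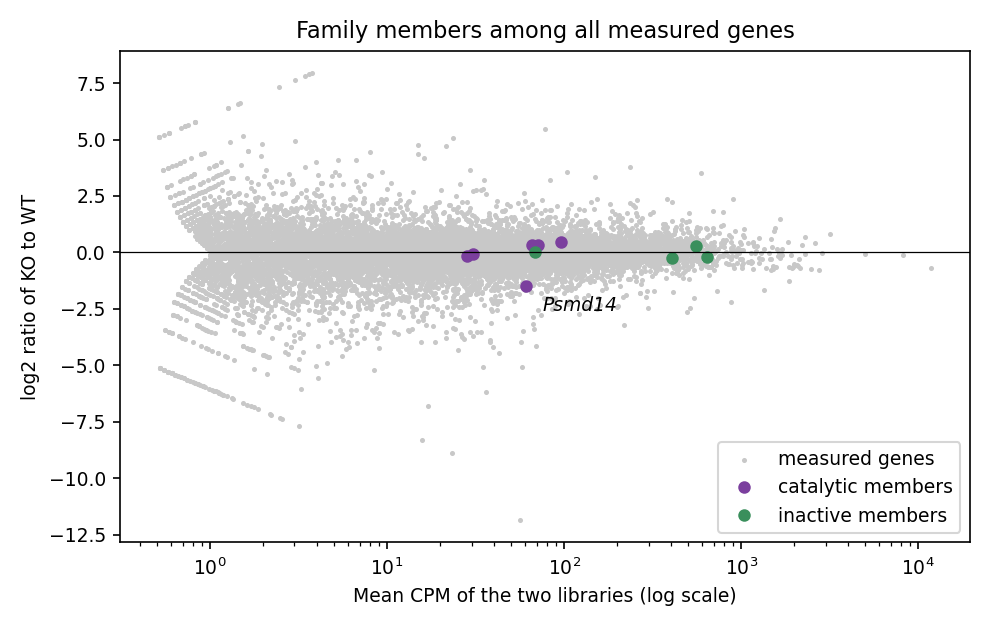
log2 ratio of KO to WT against the mean CPM of both libraries (log axis) for 13464 measured genes in grey, with the catalytic and inactive members in colour. Psmd14 is at -1.49, with 6.80% of measured genes lower, and the 9 relatives lie between -0.23 and 0.45.

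Psmd14 lies on chromosome 2 from 61711694 to 61800376 (mm10), and its exons overlap those of no other gene in the GENCODE annotation. The authors' gene model may differ, since the length behind their FPKM was 3876 bases and the GENCODE exons cover 2820. The nearest measured protein-coding gene is Tank, an adaptor of TRAF signalling, 57.5 kb upstream. Tank had 1756 counts in KO and 2503 in WT, a ratio of 0.874 (0.822 to 0.929). Further upstream, the RNA-binding protein gene Rbms1 was 1.22-fold higher (1.16 to 1.28) and the endocytic receptor gene Ly75 1.60-fold higher (1.49 to 1.73). Downstream, Slc4a10 had 17 counts in KO and 21 in WT, a ratio of 1.01 with a wide interval (0.499 to 2.01), and the protease gene Dpp4 was 1.26-fold higher (1.19 to 1.32). Ifih1, an interferon-inducible sensor of viral RNA 795 kb downstream, had 1144 counts in KO and 680 in WT, 2.095-fold higher (1.90 to 2.31), the only one of these 6 neighbours with its interval wholly beyond 1.5-fold. Over all measured genes 9.58% were higher and 12.3% lower by that rule, so this count among 6 genes does not stand out. None of the 6 was lower by as much as Psmd14.

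For the relatives, exon overlap was small: 4.83% of Cops5 exon length with Cspp1, 2.53% of Cops6 with Mcm7 and 1.30% of Stambp with Gm21284. The kit did not mark strand, so reads in those overlaps cannot be assigned. Eif3h had 1 near-identical copy, a processed pseudogene matching 1056 bases at 96.3% identity, and the sources used here do not say how reads matching both were counted.

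The partners of Psmd14 in the proteasome lid were read against the shares over all measured genes, 9.58% higher and 12.3% lower. Of 8 other lid genes, 1 had its whole interval beyond 1.5-fold higher and 0 lower. With 8 genes these counts do not stand out. The log2 ratios of 7 were above 0 (median 0.37). Psmd3 (RPN3) had 4750 counts in KO and 2816 in WT, 2.101-fold higher (2.005 to 2.20), and Psmd8 (RPN12) was at the low end with a ratio of 0.957 (0.904 to 1.01). The cysteine deubiquitinases that also work at the proteasome, Usp14 and Uchl5, and the receptor Adrm1 (RPN13) that anchors UCHL5, had 0 of 3 with the interval wholly beyond 1.5-fold. With 3 genes this count does not stand out either. Uchl5 had 455 counts in KO and 807 in WT, a ratio of 0.702 (0.625 to 0.789), while Adrm1 was 1.57-fold higher (1.45 to 1.71).

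Other genes with an MPN domain were all above 1 in ratio, and the median log2 ratio was 0.56. The whole interval was beyond 1.5-fold for 0 of 4, beside 9.58% of measured genes higher and 12.3% lower. With 4 genes this count does not stand out. Psmd7 was at the top with 1998 counts in KO and 1604 in WT, 1.55-fold higher (1.45 to 1.66), and Mpnd at the bottom with 1.21-fold (1.09 to 1.35). Fam175a and Fam175b, the Abraxas scaffolds on which BRCC3 depends, lay between them. Psmd7 is also counted among the lid genes, and both Abraxas genes among the partners of Brcc3.

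The partner complexes of the other members were read against the same shares, 9.58% of measured genes with the interval wholly beyond 1.5-fold higher and 12.3% lower. In the COP9 signalosome, 0 of 8 partners had such an interval and the median log2 ratio was 0.03, with Myeov2 (COPS9) 1.33-fold higher (1.06 to 1.67) and Cops7b at a ratio of 0.796 (0.672 to 0.941). In the BRISC and BRCA1-A group 0 of 8 had the whole interval beyond 1.5-fold, with a median of -0.11. Fam175a was 1.51-fold higher (1.29 to 1.77) there and Bard1, the partner of BRCA1, at 0.712 (0.595 to 0.849). Among 9 ESCRT genes found in the tables, which act on endosomes with STAMBP, 1 was higher and 0 lower (median 0.33). Chmp3, an ESCRT-III subunit that binds STAMBP, had 664 counts in KO and 431 in WT, 1.92-fold higher (1.70 to 2.17), and Chmp2a was at 0.801 (0.737 to 0.869).

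The list set alongside Mysm1 holds histone H2A ubiquitin enzymes, the BAP1 cofactor genes Asxl1 and Asxl2, and the acetyltransferase Kat2b. It had 1 of 10 higher and 0 lower, with a median log2 ratio of 0.25. The higher gene was Kat2b (PCAF), which is no ubiquitin enzyme of H2A. It had 3226 counts in KO and 2222 in WT, 1.81-fold higher (1.71 to 1.91), and Asxl2 was at 0.755 (0.713 to 0.800). In eIF3, 0 of 12 partners of Eif3h and Eif3f had the whole interval beyond 1.5-fold, with a median of -0.18. Eif3m was 1.16-fold higher (1.10 to 1.23) and Eif3j2, which has a near copy in Eif3j1, was at 0.638 (0.578 to 0.704). In the U5 particle around PRPF8 0 of 7 had the whole interval beyond 1.5-fold, with a median of -0.01, running from Txnl4a at 0.700 (0.603 to 0.812) to Cd2bp2 at 1.46 (1.35 to 1.59).

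Deubiquitinases of the OTU, UCH, Josephin and MINDY classes had 1 of 21 measured genes higher and 2 lower, with a median log2 ratio of -0.03. Over all measured genes 9.58% were higher and 12.3% lower by the same rule, so these counts do not stand out. Yod1, an OTU enzyme that works with p97, had 689 counts in KO and 465 in WT, 1.85-fold higher (1.64 to 2.08). Tnfaip3, the gene of A20, an OTU enzyme that restrains NF-kB, was lower at a ratio of 0.415 (0.408 to 0.423), with 15960 counts in KO and 47870 in WT. Uchl3, with 252 counts in KO and 589 in WT, was the other lower gene, at 0.533 (0.458 to 0.619), and it is named here because the count was 2, after its values were seen. No gene among these 21 had a lower ratio than Psmd14.

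**Figure D5:**
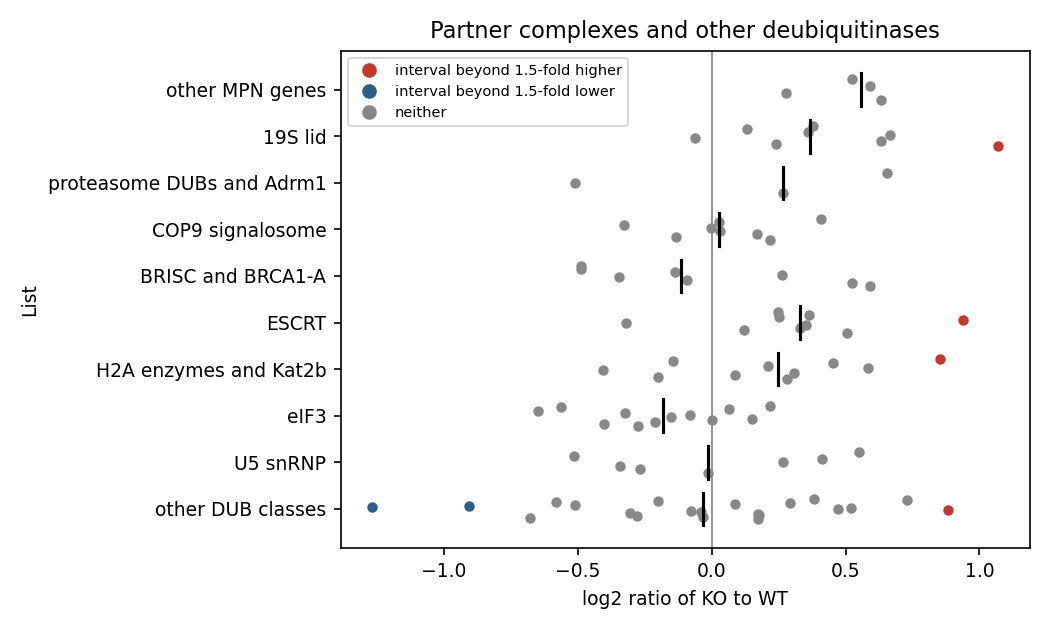
log2 ratio of KO to WT for each measured gene of the partner complexes and other deubiquitinase classes, 1 point per gene, with the list median as a black bar. Red points are higher and blue points lower with the counting interval wholly beyond 1.5-fold. The 19S lid, ESCRT and the list labelled H2A enzymes and Kat2b have 1 red point each. The other deubiquitinase classes have 1 red and 2 blue points.

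The genes closest to Psmd14 in level, by distance over the log2 CPM of the 2 libraries, were Stx11, Bub1b and Gadd45b. Stx11 had 468 counts in KO and 1634 in WT, Bub1b 468 in KO and 1636 in WT, and Gadd45b 452 in KO and 1695 in WT. With 2 libraries this likeness rests on 2 points per gene.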

How the data were processed

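RNA from sorted splenic Treg cells was measured in 1 KO and 1 WT library made with a kit that does not mark strand, per the labels' protocols. TopHat and HTSeq with mm10 were used, per the submitters' processing notes, without versions, annotation or the handling of reads with several matches. The deposited values are whole read counts per gene name and FPKM that the authors scaled by gene length and library total, per the file headers.

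Counts were scaled with TMM factors (edgeR 4.0.16, R 4.3.3), which moved the KO to WT ratio by -0.00078 on the log2 scale against plain totals. The 95% interval of a ratio is the exact Clopper-Pearson interval conditional on the summed count, and quotients of 2 genes an exact conditional odds-ratio interval. Intervals of FPKM are exact Poisson intervals. No molecular identifiers were used, so reads are not independent molecules and the intervals cover counting error only. Genes counted as measured reached 1 CPM in either library, and one was called where its whole interval was past 1.5-fold. For log2 ratios 0.5 counts were added, scaled to library size. The smallest member count was 389 and the largest 12565.

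The members and lists were chosen with earlier results of these data known. Foxp3 and Ikzf2 were named among the Treg markers after their values were seen. Named are all members, the genes with the highest and lowest ratio of each partner list, the most abundant marker of each marker list, the 3 measured protein-coding genes on each side of Psmd14, and the 3 genes nearest to it in level. Coordinates, transcripts and overlaps come from GENCODE M21 on mm10 (bedtools 2.31.1), and copies of at least 200 bases at 95% identity from minimap2 2.31. Signature codons were found by translating the first principal transcript of 9 members; the Cops6 stretch is not reported here. Calculations used scipy 1.17.1, numpy 2.4.6 and pandas 2.3.3 in Python 3.11.15, with plots from matplotlib 3.10.9, and were tested on simulated data. Chmp1b was not analysed here.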

Additional observations from a re-analysis of the deposited data

How the results depend on the processing

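No paired analysis was possible because each genotype has 1 library, and no replicate could be left out. Of 105 values recomputed under plain totals, median-of-ratios or upper-quartile scaling, 103 stayed within their counting interval or within 1.5 times their count. Each scaling shifts all ratios alike, by 0.039 on the log2 scale against plain totals for upper-quartile factors and by less for the others. This agreement was thus largely fixed in advance. A reversal of direction was looked for in the Psmd14 ratio only, which stayed below 1 in every recomputation. The Psmd14 ratio ran from 0.355 to 0.366 under these scalings, and the median of the 9 relatives from 0.03 to 0.08. The exceptions under scaling were Prpf8, at 0.880, and the lid genes called higher, 2 in place of 1, both with upper-quartile factors. Psmd14 was called lower under every limit tried. A limit of a 25% difference, in place of 1.5-fold, called 1 member (Mysm1) higher, against 0 at 1.5-fold. Other lists moved too, among them 3 of the other MPN genes and 3 lid genes higher and 3 eIF3 genes lower at that limit, against 0, 1 and 0 as reported. At 2-fold the 1 higher gene of the ESCRT list and of the H2A list was lost. The other deubiquitinase classes lost Yod1 as higher and Uchl3 as lower at 2-fold, leaving 0 higher and 1 lower. The measured genes called depended on the limit, with 2620 lower and 2253 higher at that limit, 892 lower and 585 higher at 2-fold, and 2651 lower and 2346 higher by the ratio alone without its interval, against 1659 lower and 1290 higher as reported. The share of Psmd14 in the family was 18.4% in KO and 43.6% in WT among catalytic members only, 1.60% in KO and 4.35% in WT from counts without length, and 2.64% in KO and 7.05% in WT with principal transcript lengths, which was chosen after seeing the data. The denominators differ by construction. With 1 library per genotype, differences between mice cannot be told apart from genotype.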
